A study of Mus musculus with 12 samples.

Results

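The genes of cholesterol and fatty acid synthesis were followed across 4 states of a mouse mammary epithelial cell line. The members were given as 34 gene symbols, chosen with earlier results of these data known. They were found as the rows of the deposited table that carried those symbols. Of the 34, 33 were present among 21853 rows. The remaining one, *Sc4mol*, is an older symbol of *Msmo1*, which was present and is described under that name. They comprised 7 genes of the mevalonate steps, 11 of the path from squalene to cholesterol, 4 regulators and sterol transport genes, 5 genes of acetyl-CoA supply and fatty acid synthesis, 4 desaturases and 2 sterol efflux transporters.

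Cells build cholesterol from acetyl-CoA through mevalonate, farnesyl diphosphate, squalene and lanosterol, and build fatty acids from the same acetyl-CoA. The transcription factors SREBP-2 and SREBP-1, made from *Srebf2* and *Srebf1*, switch on the sterol and fatty acid genes when membrane sterol is low, and INSIG proteins hold them back in the endoplasmic reticulum when sterol is plentiful. Oxysterols act through LXR receptors to switch on the efflux transporters, so that the synthesis and efflux arms commonly move in opposite directions. Mammary epithelium is known for lipid synthesis, most of all during lactation.

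CommaDβ cells, an untransformed line from the mouse mammary gland that was grown in medium with serum, insulin and EGF, were sorted by the surface antigen Sca-1. RNA-seq covered 12 libraries in 4 groups of 3. The Sca-high group held uninfected cells with high Sca-1, described as undifferentiated, and the Sca-low group held uninfected cells with low Sca-1, described as differentiated or luminal. The Sca-high NT group held Sca-high cells infected with the lentiviral vector pSliK34a, which makes miR-34a under doxycycline, and left without doxycycline. The Sca-high 34a group held Sca-high cells infected with the same vector and given doxycycline for 24 h. All groups derive from 1 cell line, and whether a group's 3 libraries are separate cultures is not in the labels, so p-values measure the spread between libraries, which may be technical. Doxycycline was given to the Sca-high 34a group alone, and its effect and that of miR-34a cannot be told apart.

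The groups followed the titles, since the genotype tag of the labels exchanges the induced and the uninduced group. The gene of the induced miRNA, *Mir34a*, was at 74.8 to 128.0 scaled RPKM in the libraries labelled Sca-high 34a and at 0.93 or below in the other 9, as the titles have it. Sca-high cells exceeded Sca-low cells in basal markers (4 of 4 tested genes) and were below them in luminal markers (3 of 3), and *Ly6a*, which encodes Sca-1, was at 11.4 ± 1.82 against 1.32 ± 0.49 scaled RPKM (SD, n = 3). Adipocyte markers, a possible source of lipid genes, summed to 0.38 scaled RPKM or less in every library. Libraries are named by their running number, 1 to 12 in the order of the groups above. In libraries 3 (Sca-high) and 12 (Sca-high 34a) the log2 distance of a gene from its group mean varied with the length of the gene (Spearman's rho of -0.45 and 0.40), and in libraries 2, 5, 6 and 11 it ran between 0.35 and 0.39 in size. The smallest steps of the values correspond to RPKM denominators, in units of 1000000 reads, of 73.1 to 84.7.

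Levels are given as RPKM, reads per kilobase of gene and 1000000 mapped reads, rescaled between libraries. Fold changes come from limma on log2(scaled RPKM + 0.1) over all 12 libraries, a scale that understates the change of low genes. The filter on low values asked for 3 libraries with 1 scaled RPKM; it left 10573 genes, 31 of them members. A gene counted as changed, or called, where the p adjusted over all genes tested by the method of Benjamini and Hochberg was under 0.01 and the log2 fold change exceeded 0.50 in size. The members below the filter were *Hmgcs1* and *Abcg1*.

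Uninfected Sca-high cells and infected, uninduced Sca-high NT cells are both labelled Sca-1 positive, and the sterol genes differed more between them than between any other pair compared. Of the 31 tested members, 26 were higher in Sca-high NT cells and 1, *Abca1*, was lower, where 10.4% of all tested genes were called higher and 21.4% in either direction. Among the sterol synthesis genes 16 of 17 rose (median log2 fold change 2.51, with a range of 0.69 to 3.14), and among the fatty acid synthesis and desaturase genes 7 of 9 rose, with a median of 1.31 and a range of 0.31 to 1.73. The median over all tested genes was 0.0072. Of the genes called higher, *Acss2* and *Tm7sf2* passed the filter only through infected libraries, where they were high. With 1 RPKM required in every library, 24 of 28 tested members were called higher. In bulk RNA a change in the share of cells that express a gene and a change in the RNA per cell cannot be told apart. The groups also differ in infection, in the vector and in any separate handling of the infected cells, and these cannot be told apart either.

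**Figure D1:**
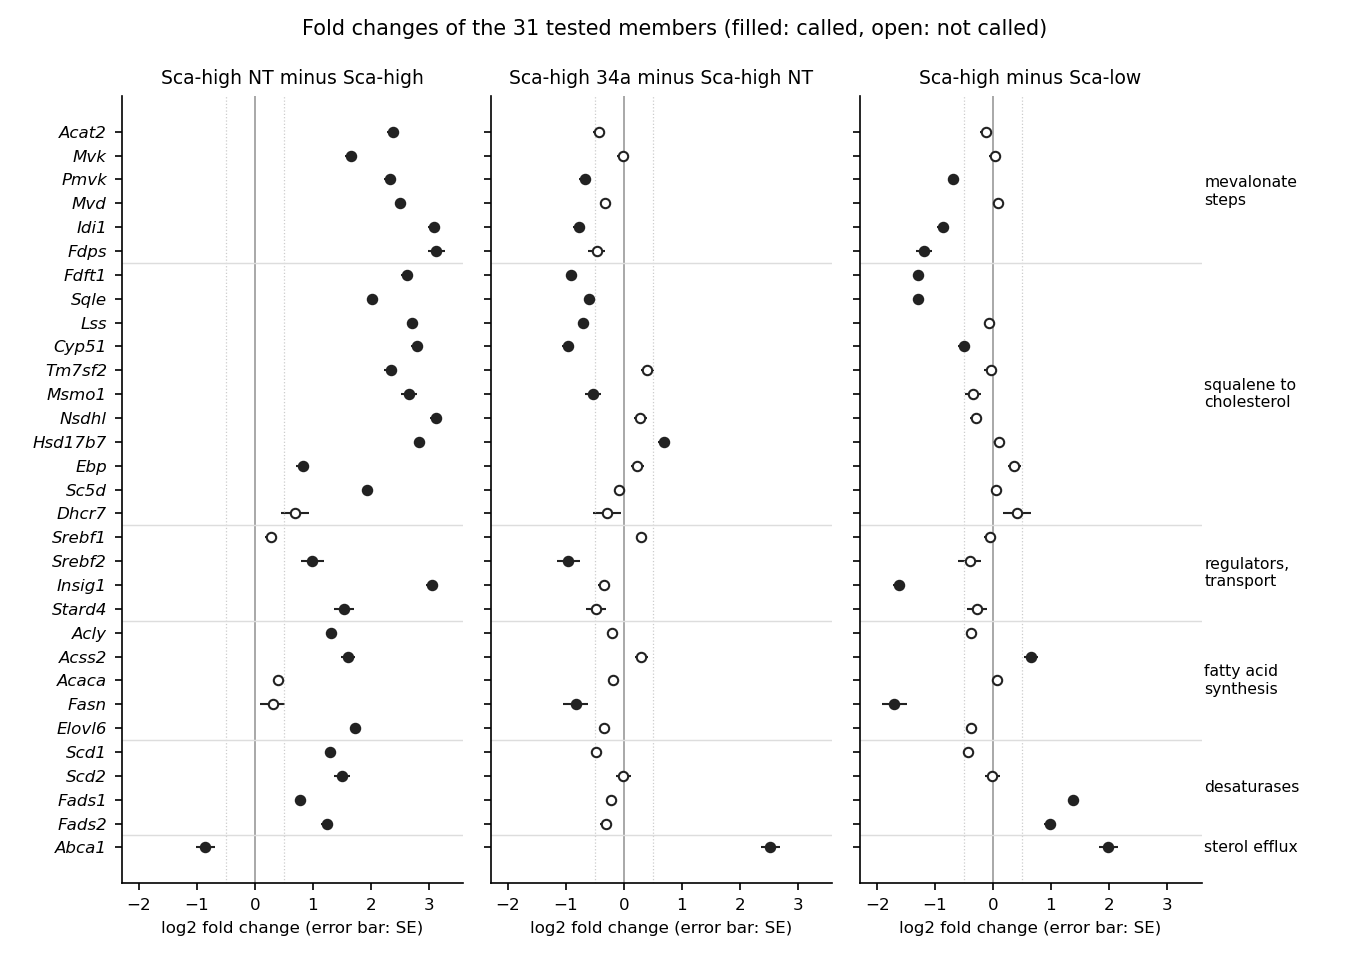
Log2 fold change of each of the 31 tested members, grouped by role, in 3 comparisons. Points are limma estimates, bars are standard errors, filled points were called, and dotted lines mark 0.50 in either direction; in the left panel 26 filled points lie to the right and only *Abca1* to the left.

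All 6 tested mevalonate genes were called higher in Sca-high NT cells. *Fdps*, farnesyl diphosphate synthase, was at 26.4, 28.0 and 27.6 scaled RPKM in Sca-high libraries and at 239.7, 226.2 and 258.0 in Sca-high NT libraries. The groups lay far apart, with an 8.83-fold ratio of means and a log2 fold change of 3.14 (SE 0.15, adjusted p = 2e-08 by limma). *Idi1*, the isomerase that interconverts the isoprenoid building blocks, rose from 6.96, 5.97 and 5.33 to 52.7, 52.1 and 53.2 scaled RPKM. Its Sca-high NT libraries were nearly identical, and its log2 fold change was 3.10 (SE 0.10, adjusted p = 3.3e-09 by limma). *Acat2*, the thiolase of the first step, rose by 2.39 on the log2 scale, the decarboxylase gene *Mvd* by 2.51, the kinase gene *Pmvk* by 2.33 and the kinase gene *Mvk* by 1.65. *Mvk* thus had the smallest difference of the mevalonate genes, and its libraries still did not overlap, with at most 5.75 scaled RPKM in Sca-high and at least 16.5 in Sca-high NT cells.

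From squalene onwards 10 of 11 genes rose. *Sqle*, squalene epoxidase, a rate-limiting step of the path, was at 14.4, 14.5 and 14.5 scaled RPKM in Sca-high libraries and at 60.1, 55.7 and 62.7 in Sca-high NT libraries. That is a 4.11-fold ratio with no overlap and a log2 fold change of 2.03 (SE 0.058, adjusted p = 1.9e-09 by limma). *Nsdhl*, a dehydrogenase of sterol demethylation, went from 6.58, 5.70 and 5.07 to 54.8, 47.1 and 51.0 scaled RPKM, a log2 fold change of 3.12 (SE 0.10). *Hsd17b7*, the ketoreductase of the same demethylation steps, went from 3.89, 4.04 and 3.28 to 28.7, 25.1 and 28.3 scaled RPKM, a log2 fold change of 2.84 (SE 0.10). Both demethylation genes thus rose to between 7 and 9 times their uninfected level. The log2 fold change was 2.80 for *Cyp51*, lanosterol demethylase, 2.72 for *Lss*, lanosterol synthase, 2.67 for *Msmo1*, methylsterol monooxygenase, 2.62 for *Fdft1*, squalene synthase, 2.35 for the sterol reductase gene *Tm7sf2* and 1.95 for the sterol desaturase gene *Sc5d*. Differences were smaller for *Ebp*, a sterol isomerase, at 0.82 (adjusted p = 0.00011), and for *Dhcr7*, the reductase of the last step, at 0.69 (SE 0.24, adjusted p = 0.031), which was not called. *Dhcr7* was at 9.05, 7.08 and 5.57 scaled RPKM in Sca-high libraries and at 12.1, 13.0 and 9.72 in Sca-high NT libraries, so its groups did not overlap, but its spread was wide. Without library 12, a Sca-high 34a library outside this comparison, *Dhcr7* passed with its value unchanged (adjusted p = 0.006 by limma). Without libraries 3 and 12 it was at 0.52 and was not called (adjusted p = 0.014 by limma).

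**Figure D2:**
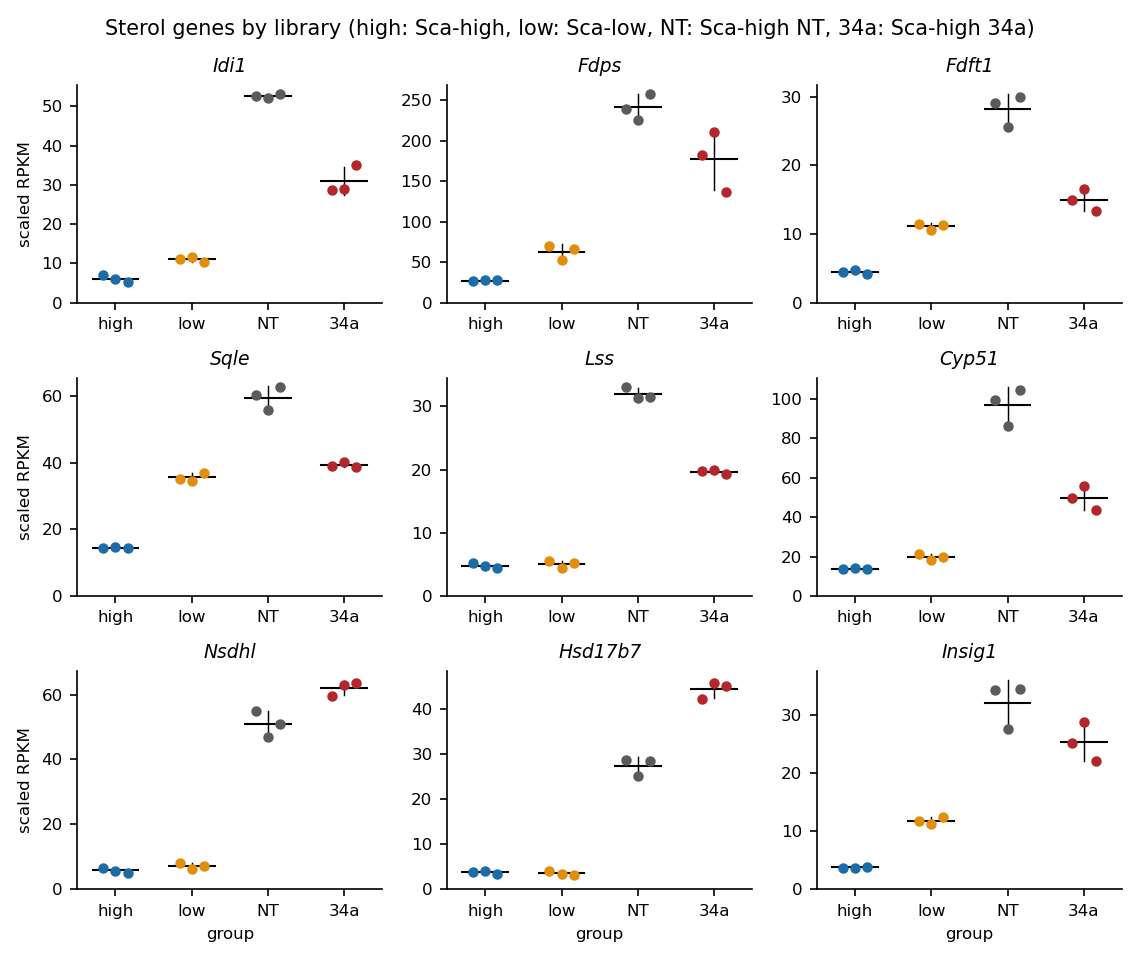
Scaled RPKM of 9 sterol genes in each library. Points are libraries, horizontal lines are group means and vertical lines span 1 SD either way (n = 3). By their means all 9 were lower in both uninfected groups than in both infected groups, and *Nsdhl* and *Hsd17b7* were highest in Sca-high 34a cells while the other 7 were highest in Sca-high NT cells.

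*Insig1*, which encodes a protein that retains SREBP and is itself a target of it, changed as much as the synthesis genes. It was at 3.64, 3.70 and 3.87 scaled RPKM in Sca-high libraries and at 34.2, 27.6 and 34.4 in Sca-high NT libraries, an 8.57-fold ratio and a log2 fold change of 3.06 (SE 0.11, adjusted p = 3.3e-09 by limma). *Stard4*, a carrier that moves sterol between membranes, rose by 1.54 on the log2 scale. The SREBP genes themselves differed less than most of the synthesis genes. *Srebf2* was at 10.5, 8.26 and 6.13 scaled RPKM in Sca-high libraries and at 16.3, 18.5 and 14.3 in Sca-high NT libraries, a called log2 fold change of 0.99 (SE 0.20, adjusted p = 0.0015). *Srebf1* was at 14.4 ± 0.70 against 17.6 ± 1.55 scaled RPKM, a log2 fold change of 0.28 that was not called (adjusted p = 0.029).

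On the fatty acid side the supply genes rose and the core synthase did not pass the test. *Acly*, which makes acetyl-CoA from citrate, was at 28.9, 29.3 and 31.0 scaled RPKM in Sca-high libraries and at 73.9, 74.8 and 73.7 in Sca-high NT libraries, a log2 fold change of 1.32 (SE 0.054, adjusted p = 7.8e-09 by limma). *Acss2*, which makes acetyl-CoA from acetate, rose by 1.61, from 0.62 ± 0.024 to 2.13 ± 0.26 scaled RPKM, and the elongase gene *Elovl6* by 1.73. *Fasn*, fatty acid synthase, was at 39.9, 34.3 and 26.1 scaled RPKM in Sca-high libraries and at 38.8, 48.4 and 36.2 in Sca-high NT libraries. These overlapped, with a log2 fold change of 0.31 (SE 0.22, adjusted p = 0.26 by limma), and *Acaca*, acetyl-CoA carboxylase, had a value of 0.41 (SE 0.086), below the fold threshold. All 4 desaturases rose: *Scd1* by 1.31, *Scd2* by 1.51, and the polyunsaturated desaturase genes *Fads1* by 0.78 and *Fads2* by 1.25. *Scd1* and *Scd2* are close paralogs, and the handling of reads shared by similar genes is not stated.

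The shift of each arm was alike in the libraries of a group. Taken as the median over its genes of the log2 difference from the Sca-high mean, the sterol synthesis arm was at 2.55, 2.47 and 2.48 in the Sca-high NT libraries and at 1.92, 2.04 and 1.86 in the Sca-high 34a libraries. The fatty acid arm was at 1.27, 1.33 and 1.31 in the Sca-high NT libraries and at 0.92, 0.77 and 1.13 in the Sca-high 34a libraries. In each of these 6 libraries the sterol arm stood above the fatty acid arm. In the Sca-low libraries both arms lay near 0, at 0.23, -0.05 and 0.17 for sterol synthesis and at 0.05, 0.05 and -0.07 for the fatty acid genes.

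**Figure D3:**
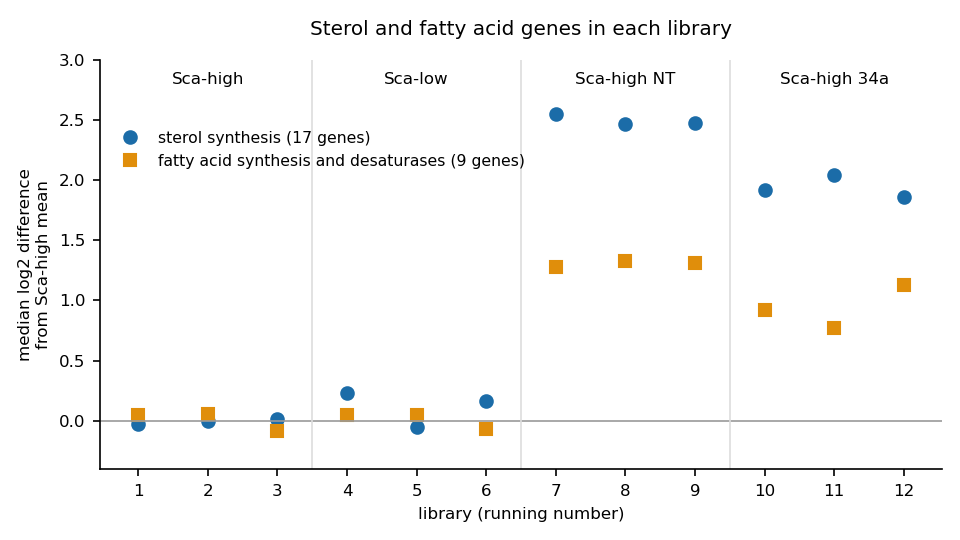
Median log2 difference from the mean of the Sca-high libraries for 17 sterol synthesis genes (circles) and 9 fatty acid synthesis and desaturase genes (squares), in each of the 12 libraries. Both arms lie near 0 in the 6 uninfected libraries, and sterol synthesis reaches 2.47 to 2.55 in the Sca-high NT libraries.

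Marker values moved beside this comparison. Luminal markers were lower in Sca-high NT than in Sca-high cells (3 of 3 tested, with summed levels of 4.29 to 5.10 against 12.7 to 15.0 scaled RPKM), and 1 of 4 basal markers was lower. The 3 fibroblast markers summed to 1.84 to 2.48 against 0.72 to 1.11 scaled RPKM. Among them the proteoglycan gene *Dcn* was called higher, at 1.72 ± 0.36 against 0.22 ± 0.038 scaled RPKM, while the collagen gene *Col1a1*, below the filter, went the other way, at 0.051 ± 0.010 against 0.47 ± 0.19. *Dcn* passed the filter only through the Sca-high NT libraries, where it was high, so nothing is read from its call. Of the macrophage and leukocyte markers *Cd68* was higher by 0.58 on the log2 scale (adjusted p = 0.0038 by limma), and the other 3, *Ptprc* among them, were under 0.1 scaled RPKM in every library. Adipocyte markers summed to 0.16 to 0.38 scaled RPKM in Sca-high NT libraries against 0.051 to 0.075 in Sca-high libraries. Among these *Fabp4*, below the filter, was at 0.27 ± 0.10 against 0.027 ± 0.012 scaled RPKM. The others, *Adipoq*, *Plin1*, *Cidec* and *Lep*, were under 0.1 scaled RPKM in every library. Of 5 proliferation markers only *Mki67* changed, falling by 0.55 on the log2 scale. Their part in the sterol gene result was not tested.

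Induction of miR-34a was compared in infected cells, Sca-high 34a against Sca-high NT. Members that fell outnumbered those that rose: 9 of 31 were called lower and 2 higher, where 21.5% of all tested genes were called lower and 17.5% higher. Of the 17 sterol synthesis genes 7 fell and 1 rose. Their median log2 fold change was -0.43, against -0.033 over all tested genes. Of the 9 fatty acid synthesis and desaturase genes 1 fell and 0 rose, with a median of -0.23. The share of members that fell was thus somewhat above that of all genes and the share that rose below it, without a test of either. Under upper quartile scaling, and with only the 2 groups compared, 7 members were called lower. Nothing is therefore read from the counts over all members. With no minimum fold and an adjusted p below 0.05, 19 members were lower and 6 higher, where 34.2% of all tested genes were lower and 30.7% higher. Markers moved beside this comparison too. The 5 proliferation markers fell, with a median log2 fold change of -3.91, and all 4 basal markers fell. The fibroblast marker *Dcn*, which passed the filter only through the Sca-high NT libraries, had a value of -2.29. Of 3 tested luminal markers *Krt18* rose by 0.59. The part of these markers in the falls of sterol genes was not tested.

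The 7 sterol synthesis genes that fell lay between *Pmvk*, among the mevalonate steps, and *Msmo1*, among the demethylation steps. *Cyp51* was at 99.6, 86.5 and 104.6 scaled RPKM in Sca-high NT libraries and at 49.8, 56.0 and 43.6 in Sca-high 34a libraries. Induced cells thus held 0.51 of the uninduced level with no overlap, a log2 fold change of -0.96 (SE 0.10, adjusted p = 5.5e-06 by limma). *Fdft1* went from 29.0, 25.5 and 29.9 to 14.9, 16.6 and 13.4 scaled RPKM, a log2 fold change of -0.91 (SE 0.090, adjusted p = 3.2e-06). *Idi1* fell by 0.77 on the log2 scale to between 28.7 and 35.1 scaled RPKM, *Lss* fell by 0.70, *Pmvk* by 0.67, *Sqle* by 0.60 and *Msmo1* by 0.54. Under upper quartile scaling *Sqle* was at -0.50 and just missed the fold threshold. *Msmo1* was lost without library 7, 9, 10 or 12 and without libraries 3 and 12 together. It was also lost under upper quartile scaling, with the values as deposited and with only the 2 groups compared. In these fits *Msmo1* was at -0.54 to -0.40, with adjusted p of 0.011 to 0.024. *Fdft1* shares 18.3% of its annotated exon bases with *Ctsb* on the opposite strand and *Fdps* 26.7% with *Gm43738* on the same strand. The sources used here do not say whether counting used strand.

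The other 10 sterol synthesis genes were not called lower. *Hsd17b7* rose from 28.7, 25.1 and 28.3 to 42.0, 45.6 and 45.1 scaled RPKM, with no overlap and a log2 fold change of 0.69 (SE 0.10, adjusted p = 8.5e-05 by limma). *Nsdhl*, which acts beside it, was at 51.0 ± 3.86 in Sca-high NT and 62.1 ± 2.25 scaled RPKM in Sca-high 34a cells, a log2 fold change of 0.29 that was not called. The values were 0.40 for *Tm7sf2*, 0.23 for *Ebp*, -0.02 for *Mvk* and -0.08 for *Sc5d*, none of them called, and *Tm7sf2* passed the thresholds under upper quartile scaling at 0.50. Values of -0.47 for *Fdps*, -0.43 for *Acat2*, -0.32 for *Mvd* and -0.29 for *Dhcr7* were likewise not called. *Fdps* passed without library 11, as *Dhcr7* did without libraries 3 and 12. The regulator gene *Insig1*, which is outside these 10, was at -0.34 and was not called either.

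*Srebf2* fell from 16.3, 18.5 and 14.3 to 7.71, 6.78 and 11 scaled RPKM, a log2 fold change of -0.96 (SE 0.20, adjusted p = 0.0012), while *Srebf1* was at 0.30 and was not called. The Sca-high 34a libraries of *Srebf2* lay at the level of uninfected Sca-high cells, 8.50 ± 2.22 against 8.30 ± 2.19 scaled RPKM, and overlapped them. Without libraries 3 and 12 its value was -1.16 (adjusted p = 6.9e-06). Library 12 was the highest of its group for *Srebf2*, as it was for *Stard4*, *Scd2*, *Dhcr7* and *Fasn*. *Stard4* was at -0.48 and was not called, and passed without library 12 at -0.67.

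*Fasn* was at 38.8, 48.4 and 36.2 scaled RPKM in Sca-high NT libraries and at 20.8, 17.3 and 33.5 in Sca-high 34a libraries, the last being library 12. It fell by 0.83 on the log2 scale (SE 0.22, adjusted p = 0.0057), but the call was lost without library 7, 8, 10 or 11, with no filter on low values and with only the 2 groups compared. The log2 fold change of *Fasn* was -0.87 to -0.63 in these fits, with adjusted p of 0.011 to 0.028. Without libraries 3 and 12 it was at -1.10 (adjusted p = 1.4e-05). The other fatty acid genes were not called, with log2 fold changes of -0.49 for *Scd1*, -0.35 for *Elovl6*, -0.31 for *Fads2*, -0.23 for *Fads1*, -0.21 for *Acly*, -0.18 for *Acaca*, -0.01 for *Scd2* and 0.30 for *Acss2*. *Scd1* lay closest to the fold threshold and passed it without library 7 or 12.

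**Figure D4:**
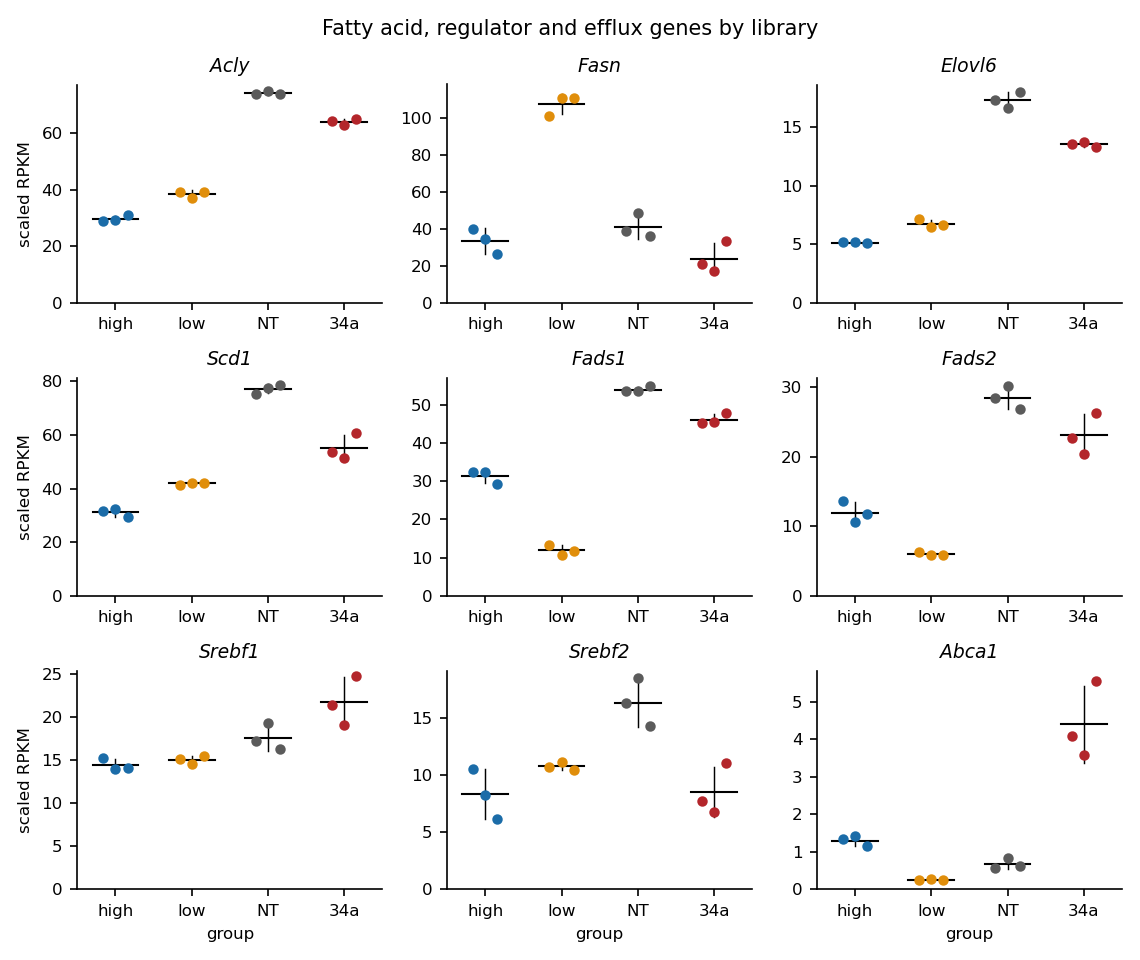
Scaled RPKM of fatty acid, regulator and efflux genes in each library, with the abbreviations high (Sca-high), low (Sca-low), NT (Sca-high NT) and 34a (Sca-high 34a). Points are libraries, horizontal lines are means and vertical lines span 1 SD either way (n = 3). *Fasn* was highest in Sca-low cells, at 101.3 to 111.0, and *Abca1* in Sca-high 34a cells, at 3.57 to 5.56.

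A miRNA pairs through its seed with matching letters in the 3′ UTR of mRNAs and lowers their level or translation. For that reason the sequence of miR-34a and its matches among the members are shown. The mature strand, at chr4:150068473-150068494 on the plus strand of GRCm38 in RefSeq, has its seed, bases 2 to 8, in capitals. In the 3′ UTR of 4 members, in the GENCODE annotation of GRCm38, capitals mark the bases that pair with the seed, or with the seed and an A opposite base 1. *Fdft1* and *Fasn* are shown as members that fell, *Scd1* for its 8-base match and *Hsd17b7* as a member that rose with a match.
miR-34a-5p: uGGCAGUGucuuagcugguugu
Fdft1, chr14:63145508-63145529, minus strand: ggtgatccCACTGCCtcagcct
Fasn, chr11:120807061-120807082, minus strand: tgagcgagCACTGCCttcggtt
Scd1, chr19:44394635-44394656, minus strand: tacctaccCACTGCCAtgaaaa
Hsd17b7, chr1:169950914-169950935, minus strand: tgcactacCACTGCCcggctac

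A match of 7 bases, CACTGCC or ACTGCCA, was present in the longest annotated 3′ UTR of 10 of the 31 tested members (32.3%) and of 2506 of 9837 tested genes with such a UTR (25.5%). The median length of these UTRs was 1566 bases for the tested members and 1376 for the tested genes. The shares are thus not given at equal length, and no excess is read from them. Only the sense strand of the UTR was searched, and the 2 letter strings overlap by 6 bases where both occur as 1 site. Of the 9 members that fell after induction 2 had a match, *Fdft1* and *Fasn*, and of the 2 that rose *Hsd17b7* had one. The other 7 with a match, *Mvd*, *Tm7sf2*, *Sc5d*, *Dhcr7*, *Elovl6*, *Scd1* and *Fads1*, were not called. The letters CACTGCC and ACTGCCA were not in the 3′ UTR used for *Srebf2*, *Cyp51*, *Idi1*, *Lss*, *Pmvk*, *Sqle* or *Msmo1*, which fell. A match is a description of letters, not a measured site.

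After induction most sterol synthesis genes stayed above their level in both uninfected groups. In 16 of 17 sterol synthesis genes every Sca-high 34a library was above all 6 uninfected libraries, the exception being *Dhcr7*, and over all tested genes 24.1% had this pattern. The distance to Sca-low cells was small for *Sqle*, with 38.7 to 40.0 scaled RPKM in Sca-high 34a and at most 36.9 in Sca-low libraries, and for *Fdft1*, with at least 13.4 against at most 11.5. For the 31 members the count was 27, without *Dhcr7*, *Srebf2*, *Acaca* and *Fasn*. Both counts include *Tm7sf2*, and the count of 27 also *Acss2*, which passed the filter only through infected libraries. Every Sca-high 34a library was below every Sca-low library for *Fasn*. The ratio of means of Sca-high 34a over Sca-high was 2.71 for *Sqle*, 3.62 for *Cyp51*, 6.47 for *Fdps* and 11.8 for *Hsd17b7*. The comparison of Sca-high NT with Sca-high cells shares its Sca-high NT libraries with the induction comparison and its Sca-high libraries with the one that follows, so the 3 sets of values are not independent.

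The sorted populations were compared without infection, Sca-high minus Sca-low. Members called lower numbered 8 of 31 and members called higher 4, where 20.6% of all tested genes were called lower and 19.8% higher. Of the sterol synthesis genes 6 of 17 were lower in Sca-high cells and the other 11 were not called, with a median log2 fold change of -0.12 against -0.0075 over all tested genes. Of the fatty acid synthesis and desaturase genes 3 were higher and 1 lower, with a median of -0.01. The counts over all members lay near the shares of all genes, so that nothing is read from them as a whole. With no minimum fold and an adjusted p below 0.05 the members called lower numbered 13, where 35.1% of all tested genes were lower.

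*Sqle* was at 14.4, 14.5 and 14.5 scaled RPKM in Sca-high libraries and at 35.1, 34.5 and 36.9 in Sca-low libraries, with no overlap and a log2 fold change of -1.29 (SE 0.058, adjusted p = 2.5e-09 by limma). *Fdft1* was likewise at -1.29, from 11.5, 10.6 and 11.4 scaled RPKM in Sca-low libraries against 4.41, 4.81 and 4.24. The enzymes on either side of squalene thus had nearly the same difference. *Fdps* was at -1.19, *Idi1* at -0.86, *Pmvk* at -0.68 and *Cyp51* at -0.51, and *Cyp51* fell short of the fold threshold without library 1 or 4 (-0.49 and -0.45), under upper quartile scaling or with a pseudocount of 1 (-0.48 in both) and with the values as deposited. *Insig1* was at 11.7, 11.2 and 12.4 scaled RPKM in Sca-low libraries, 3.14 times its Sca-high mean, a log2 fold change of -1.63 (SE 0.11, adjusted p = 6.5e-08). Of the genes from lanosterol synthesis onwards, *Lss*, *Tm7sf2*, *Hsd17b7* and *Sc5d* had values of -0.08, -0.04, 0.10 and 0.06, and *Msmo1*, *Nsdhl*, *Ebp* and *Dhcr7* of -0.35, -0.30, 0.37 and 0.42, none of them called, although *Dhcr7* passed without libraries 3 and 12 at 0.59. *Acat2*, *Mvk* and *Mvd* were at -0.12, 0.04 and 0.09, and *Srebf1*, *Srebf2* and *Stard4* at -0.05, -0.40 and -0.27, not called either.

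The fatty acid arm split in this comparison. *Fasn* was at 101.3, 110.9 and 111.0 scaled RPKM in Sca-low libraries and at 39.9, 34.3 and 26.1 in Sca-high libraries, so that Sca-low cells held 3.22 times the mean, with a log2 fold change of -1.70 (SE 0.22, adjusted p = 2.9e-05 by limma). In the opposite direction *Fads1* was at 32.4, 32.5 and 29.2 scaled RPKM in Sca-high libraries and at 13.3, 10.8 and 11.8 in Sca-low libraries, a log2 fold change of 1.39 (SE 0.079, adjusted p = 2e-08 by limma). *Fads2*, its neighbour on chromosome 19 and its partner in making long polyunsaturated fatty acids, was at 0.98 (SE 0.10). The last of the 3 was *Acss2* at 0.66, a low gene with 0.62 ± 0.024 against 0.36 ± 0.073 scaled RPKM, which lost its call with a pseudocount of 1. *Acly*, *Elovl6* and *Scd1* were at -0.37, -0.39 and -0.43, below the fold threshold with adjusted p of 0.00018 or less, *Acaca* was at 0.07 and *Scd2* at -0.01.

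Sterol efflux was read from *Abca1*, which loads cholesterol onto apolipoprotein A-I. It was at 1.33, 1.42 and 1.14 scaled RPKM in Sca-high libraries, 0.25, 0.27 and 0.23 in Sca-low libraries, 0.57, 0.84 and 0.62 in Sca-high NT libraries and 4.09, 3.57 and 5.56 in Sca-high 34a libraries. The 4 groups did not overlap, in the order Sca-low, Sca-high NT, Sca-high and Sca-high 34a. Its log2 fold change was 2.53 after induction (SE 0.16, adjusted p = 7.8e-08), 1.99 for Sca-high minus Sca-low (SE 0.16, adjusted p = 5.6e-07) and -0.86 from Sca-high to Sca-high NT cells (SE 0.16, adjusted p = 0.0012). The last of these was lost with a pseudocount of 1, at -0.45. *Abca1* was thus the member with the largest rise after induction and the only one called lower in Sca-high NT than in Sca-high cells.

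*Abcg1*, which exports cholesterol to high-density lipoprotein, stayed below the filter, and its values came out as whole reads. There were 25, 15 and 23 reads in Sca-high libraries, 181, 207 and 170 in Sca-low libraries, 21, 18 and 23 in Sca-high NT libraries and 53, 51 and 54 in Sca-high 34a libraries. Sca-low libraries were the highest and the Sca-high 34a libraries lay between them and the other groups, which overlapped. Its mean level was 0.39 ± 0.032 scaled RPKM in Sca-low and 0.042 ± 0.0081 in Sca-high cells. Between these populations *Abca1* and *Abcg1* thus stood in opposite order. With no filter on low values *Abcg1* was tested, and passed with a log2 fold change of -1.77 for Sca-high minus Sca-low (adjusted p = 3.9e-09 by limma) and of 0.51 after induction (adjusted p = 0.00011).

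*Hmgcs1*, which makes HMG-CoA, was listed at 0 to 3 whole reads per library. The step of its values corresponds to a gene length of 8458 bases, against 4594 annotated exon bases, so the gene model behind the row is not known and no level is read from it. The promoter of *Hmgcs1* was nevertheless the only one of the 25 member promoters at hand with a match to the loose sterol regulatory element TCACNCCAC, which is why it is shown, in RefSeq sequence of GRCm38 with the match in capitals.
Hmgcs1 promoter, chr13:119690204-119690233, plus strand: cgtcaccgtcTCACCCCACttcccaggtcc

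Windows reached from 250 bases before to 50 bases after the annotated start and were searched on both strands. A member counted where any of its windows matched, whereas the percentages are shares of single windows, so counts and shares are not directly comparable. TCACNCCAC was found in 1.24% of all 32851 windows, and a stricter form of the element, each match of which is also a match of the loose form, in 0 of the 25 and in 0.0913% of all windows. The inverted CCAAT box ATTGG, a motif of NF-Y, was present in 20 of the 25 and in 37.4% of all windows, and the GC box GGGCGG, a motif of Sp1, in 21 of the 25 and in 35.7%. Members with ATTGG included *Idi1*, *Cyp51*, *Nsdhl* and *Hsd17b7*, and *Abca1*, *Acat2* and *Fads2* had GGGCGG without ATTGG. These are letters in a window and say nothing of factor binding.

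Further genes of both pathways were counted from 2 lists. Of 24 tested genes of sterol uptake, regulation and handling, 9 were higher and 1 lower in Sca-high NT than in Sca-high cells. *Mylip*, which encodes a ubiquitin ligase switched on by LXR receptors, fell by 0.92 on the log2 scale. After induction 5 rose and 7 fell, and among those that rose were *Mylip* by 0.94 and *Nr1h2*, which encodes an LXR receptor, by 0.72. In Sca-high minus Sca-low 10 were higher, among them the cholesterol esterification gene *Soat1* (1.58) and the lysosomal lipase gene *Lipa* (2.13), and 4 lower, among them *Mylip* (-1.79). *Mylip* was thus called in all 3 comparisons, and its value was positive after induction alone.

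Of 26 tested genes of fatty acid supply and lipid assembly, 15 were higher and 1 lower in Sca-high NT than in Sca-high cells. The smallest p values were those of the phospholipid gene *Pcyt2* (log2 fold change 1.77) and the acetoacetyl-CoA synthetase gene *Aacs* (1.36), with *Lpin2*, a phosphatidate phosphatase, falling by 0.82. After induction 6 rose and 3 fell, with *Agpat3*, an acyltransferase, at 0.92, *Mlx*, a partner of glucose-responsive factors, at 0.75, and *Gpam* and *Pcyt2* at -0.68 and -0.53. In Sca-high minus Sca-low 1 was higher, *Acsl4* at 0.65, and 9 were lower, with the elongase gene *Elovl7* at -3.52 and *Pcyt2* at -2.38. Over all tested genes the shares were those given above. Between Sca-high NT and Sca-high cells 10.4% were higher and 21.4% were called in either direction. After induction 17.5% were higher and 21.5% lower, and in Sca-high minus Sca-low 19.8% were higher and 20.6% lower. The counts of the 2 lists were not tested against these shares, and nothing is read from those after induction. The genes named from these lists are among those with the smallest p in each direction.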

How the data were processed

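Total RNA of 12 libraries was sequenced from Illumina TruSeq libraries. For each gene and library the deposited table, described as raw reads, holds an RPKM value computed by the authors. Per the labels' processing notes, TopHat2 2.0.6, mm9 and DESeq2 were used. The sources used here give no read counter, annotation or use of strand. RPKM depends on the gene length chosen and on what the rest of the library holds, so libraries were rescaled by an unweighted trimmed mean of M values (30% of M and 5% of A values trimmed at each end) over genes that reached 1 RPKM in 3 or more libraries. Rows without a symbol (182, at most 1.59% of the RPKM sum of a library) were left out.

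The values are not counts, so a model with 4 group means was fitted with limma 3.58.1 in R 4.3.3 to log2(scaled RPKM + 0.1), with a mean-variance trend and 8 residual degrees of freedom. A count model was not run. The columns of the authors' own fold changes and p-values were not used. The value of 1 read was read from 2602 genes with few reads, and the gene length behind it from the GENCODE vM21 annotation of GRCm38, which is another build than that of the files. Read numbers of members are estimates except where they came out whole. The fit was tested on simulated data with known changes before it was run. Python 3.11.15, pandas 2.3.3, numpy 2.4.6 and matplotlib 3.10.9 were used.

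Every member found was named. From the other lists, the 2 called genes with the smallest p in each direction were named, except items that are not reported here. The members and all lists were chosen with earlier results of these data known. Alternatives covered scaling, filter, pseudocount, thresholds, the libraries in the model and the trend with gene length.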

Additional observations from a re-analysis of the deposited data

How the results depend on the processing

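No paired analysis was possible because the columns carry running numbers and no replicate numbers. Of the calls on members, 26 of 27 in Sca-high NT minus Sca-high, 8 of 11 after induction and 10 of 12 in Sca-high minus Sca-low held under every alternative in which the gene was tested. Those lost under at least 1 alternative were *Abca1* in the first, *Fasn*, *Msmo1* and *Sqle* in the second, and *Acss2* and *Cyp51* in the third, and no called direction was reversed. Some alternatives were weak checks by construction. Looser thresholds cannot lose a call, and leaving out a library outside a comparison leaves its fold changes as they were. With 1 RPKM required in every library, members called higher numbered 2 in Sca-high minus Sca-low (4 in the main test) and 1 after induction (2), and none was lower in Sca-high NT minus Sca-high (0, against 1). At an adjusted p below 0.05 with no minimum fold, 13 members were lower in Sca-high minus Sca-low (8, with 35.1% of all tested genes lower), and after induction 6 were higher (2, with 30.7% of all genes) and 19 lower (9, with 34.2%). The median log2 fold change of the fatty acid genes in Sca-high minus Sca-low was -0.01, and was -0.19 with 1 RPKM in every library or with only the 2 groups compared and 0.10 without libraries 3 and 12. The median of the sterol synthesis genes after induction was -0.33 under upper quartile scaling, which moved the median of all tested genes to 0.061. A pseudocount of 1 gave medians of 2.29 and 1.19 for sterol synthesis and fatty acid genes in Sca-high NT minus Sca-high and left 0 members called lower. Requiring 1 RPKM in every library left 28 members tested. That setting and the fit of only the 2 groups each tested 8 of the 9 fatty acid genes in Sca-high minus Sca-low. A larger pseudocount shrinks log2 fold changes by construction. Beyond these points the cause of the shifts was not tested.

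Leaving out each library in turn gave these ranges. In Sca-high minus Sca-low 4 to 4 members were higher and 7 to 8 lower, with medians of -0.20 to -0.06 for sterol synthesis and -0.087 to 0.10 for fatty acid genes. After induction 2 to 2 were higher and 7 to 10 lower, with medians of -0.49 to -0.38 and -0.27 to -0.21. In Sca-high NT minus Sca-high 26 to 27 were higher and 1 to 1 lower, with medians of 2.49 to 2.54 and 1.26 to 1.32. Removing each library's trend with gene length, an alternative added after seeing the data, left all counts as they were. That trend was taken from each library's distance to its own group mean, so group means stayed nearly in place. A trend with gene length between groups could not be seen or removed this way. A fit of a count model was not run, since the values are not counts.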
